A study of Bos taurus with 48 samples.

Results

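Mammary parenchyma of cows fed milk replacer was compared with mammary parenchyma of cows given the control treatment, across all miRNAs of the deposited table. The members were defined by their tissue and treatment labels, and the comparison was chosen with earlier results of these data known. They were 12 milk replacer samples (6 ad libitum, fed without limit, and 6 restricted, fed a limited amount) and 3 control samples. Together these are 15 of the 48 samples of the series. The control samples carry the numbers 1, 2 and 18 in their titles and are given singly, because they were unlike one another. The other samples of the series were 16 of mammary fat pad (12 milk replacer, 4 control) and 17 of liver; only the fat pad is used here, as the tissue that surrounds the parenchyma. The tissues were placed in RNA Later immediately after slaughter, and small RNA libraries were sequenced. The labels name neither the age, breed or physiological state of the animals nor what the control animals were fed, and they do not say that the samples of a group came from separate animals, so p-values measure the spread between these samples only. The titles of controls 1 and 2 end in the letters PAR and those of all other parenchyma samples in PP, PPP or PPT. These codes are not explained, and whether they mark a batch was not stated.

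MicroRNAs are short RNAs that guide Argonaute proteins to messenger RNAs, mainly through a seed near their 5′ end, and so lower translation or stability of the targets. Many of them are made largely by 1 kind of cell. The miR-200 family (miR-200a, miR-200b, miR-200c, miR-141 and miR-429), the miR-183 cluster, miR-205 and miR-375 are known from epithelia, where the miR-200 family holds back the ZEB factors that turn off epithelial genes. miR-126 is made from an intron of EGFL7 in endothelium, miR-143 and miR-145 are abundant in smooth muscle and fibroblasts, and miR-142, miR-223 and miR-150 belong to blood and immune cells. Parenchyma is the part of the developing gland that holds the epithelial ducts. In bulk tissue, fewer cells of a type and less of its miRNA per cell cannot be told apart.

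Mature sequences are shown for 4 miRNAs of which each shows a different pattern below: an epithelial miRNA listed at 0 in all controls (miR-375), a member of the imprinted DLK1-DIO3 cluster (miR-433), a miRNA high in controls 1 and 2 but not in control 18 (miR-708) and a myeloid miRNA that set the controls apart from each other (miR-223). They are the sequences of the qPCR assays, listed by the study under human names, written with T for U, and the capitals mark the seed (bases 2 to 8). The 4 seeds differ from one another.
miR-375-3p: tTTGTTCGttcggctcgcgtga
miR-433-3p: aTCATGATgggctcctcggtgt
miR-708-5p: aAGGAGCTtacaatctagctggg
miR-223-3p: tGTCAGTTtgtcaaatacccca

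Values are normalized read counts, that is, reads of a mature miRNA divided by 1 size factor per library. The estimated reads assigned to miRNAs ranged from 6193678 to 11291532 in the milk replacer samples and from 7364055 to 9002775 in the controls. A value of 0 can stand for up to 5 reads. Because a size factor does not fix the total, the sums of the normalized read counts differed, at 2903216 to 3691031 (median 3468952) in the milk replacer samples and 4581837, 4257952 and 3771124 in controls 1, 2 and 18 (two-sided exact permutation test, p = 0.0044, the smallest this design can give). Milk replacer libraries held more kinds of miRNA: the number of miRNAs above 0 was 403 ± 13.2 in milk replacer samples (SD, n = 12; lowest 386, median 402) and 375.7 ± 6.81 in controls (SD, n = 3), a difference of 27.8 (two-sided exact permutation test, p = 0.0044). Each control was below every milk replacer sample.

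Of 524 miRNAs, 339 had a mean of at least 10 over the 15 samples and were tested with limma on log2(value + 1). At a Benjamini-Hochberg adjusted p under 0.05, 45.4% of them differed between milk replacer and control parenchyma, with 102 higher (30.1%) and 52 lower (15.3%) with milk replacer. Among the higher ones were 11 epithelial miRNAs and 44 of the DLK1-DIO3 cluster, while miRNAs of endothelium, smooth muscle, adipocytes and the HOX clusters were among the lower ones. The log2 fold changes ran from -4.14 to 10.35 with a median of 0.13. Of those that passed, 94 higher and 39 lower miRNAs differed by more than 1 on the log2 scale. In 56 miRNAs (16.5%) all 12 milk replacer samples were above all 3 controls, and in 20 (5.9%) all were below; together these were 76 miRNAs (22.4%), each of which passed the test. Some names are gene copies that share reads (miR-199a-1-3p and miR-199a-2-3p, miR-194-1 and miR-194-2) and miR-29b and miR-29e have identical values; counted once per group of copies, 100 higher and 48 lower remained.

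The 2 feeding levels gave similar counts against the same 3 controls, which both comparisons share. Ad libitum parenchyma was higher than control parenchyma in 95 miRNAs (28%) and lower in 49 (14.5%), which is 42.5% of those tested. Restricted parenchyma was higher in 92 (27.1%) and lower in 46 (13.6%), or 40.7%. The split into higher and lower moved with the scaling: with each sample set to the same sum, 119 were higher and 36 lower, and the median log2 fold change of all tested miRNAs was 0.42.

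**Figure D1:**
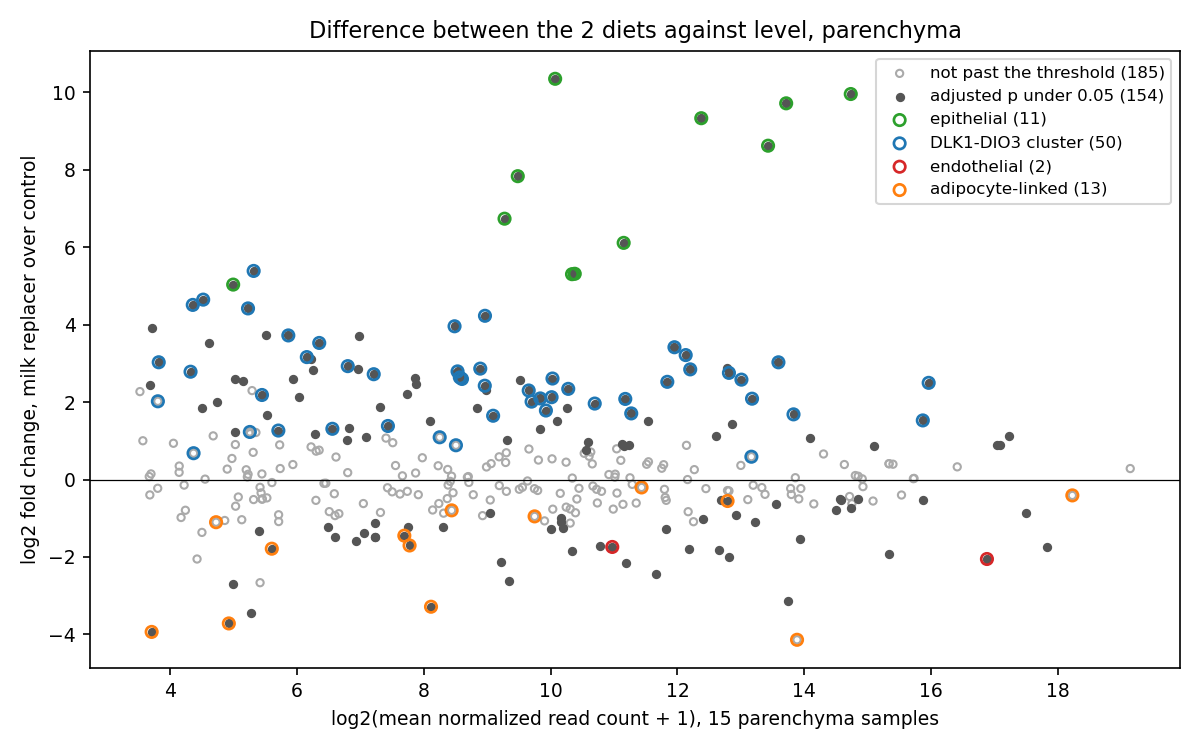
Each point is 1 of 339 miRNAs in parenchyma: the horizontal axis is log2 of the mean normalized read count plus 1 over 15 samples, and the vertical axis is the log2 fold change of milk replacer over control. Filled points are the 102 higher and 52 lower miRNAs with an adjusted p under 0.05 (limma), and coloured rings mark 4 lists: the 11 epithelial miRNAs lie at 5.03 or above, most of the 50 DLK1-DIO3 miRNAs lie above 1, and both endothelial miRNAs lie below 0.

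The epithelial list stood apart most. All 11 tested members were higher with milk replacer, in each the 12 samples were above all 3 controls, and the median log2 fold change was 7.83 against 0.13 over all tested miRNAs. miR-200a, the most abundant of them, ranged from 24048 to 49508 (median 34202) in milk replacer samples, against 66.7, 29.5 and 17.6 in controls 1, 2 and 18 (log2 fold change 9.95, SE 0.29, adjusted p = 6.77e-15, limma). miR-205, known from basal epithelial and myoepithelial cells, ranged from 7907 to 37804 (median 14439) with milk replacer, against 53.9, 17.3 and 4.9 in the controls (log2 fold change 9.71, SE 0.52). miR-200c ranged from 9102 to 20282 (median 13201), against 35.6, 20.8 and 48.5. These miRNAs were thus far below every milk replacer sample, at 4.9 to 66.7, in all 3 samples labelled control parenchyma. The labels give no reason for this, and its cause was not tested.

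miR-200b, which lies beside miR-200a and miR-429 in the genome, ranged from 3945 to 10874 (median 5721) in milk replacer samples, against 11.7, 9.83 and 5.88 in the controls. miR-429 ranged from 842 to 1968 (median 1273) and was listed at 0 in each control. Taken against 5 reads per control library, which a 0 can hide, miR-429 was at least 511-fold higher with milk replacer and miR-375 at least 14.6-fold higher. miR-375, whose sequence is shown above, ranged from 15.5 to 98.9 (median 29.7) in milk replacer samples and was also listed at 0 in each control. With these 2 miRNAs at their bounds (log2 9.00 and 3.87) the list's median of 7.83 could not move, since each stayed on its side of it.

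The miR-183 cluster (miR-182, miR-183 and miR-96), which shares 1 transcript and is known from epithelia and sensory cells, was lowest in control 2. miR-182 ranged from 1835 to 4216 (median 2818) in milk replacer samples, against 117, 4.05 and 105 in controls 1, 2 and 18. miR-183 ranged from 1166 to 2119 (median 1629), against 129.8, 7.52 and 55.4. miR-96 ranged from 465 to 1185.1 (median 802), against 6.62, 0 and 43.6. The controls thus differed among themselves in this cluster, and each was still below every milk replacer sample. miR-141, the partner of miR-200c, ranged from 456 to 1533 (median 838), against 0, 3.47 and 9.8, and miR-31 from 1117 to 3187 (median 1346), against 38.2, 58.4 and 25.5.

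**Figure D2:**
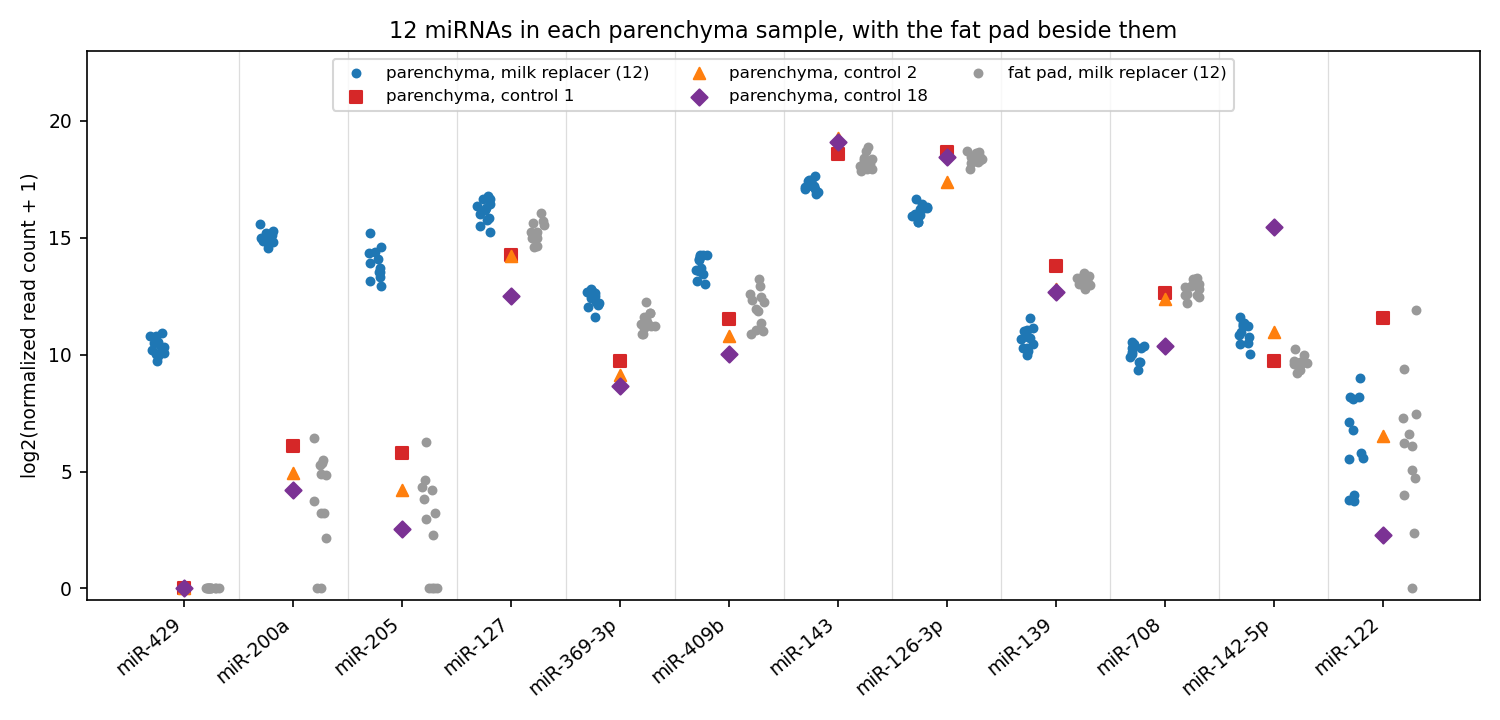
Normalized read counts of 12 miRNAs in single samples, as log2(value + 1): milk replacer parenchyma (12 points), controls 1, 2 and 18 of the parenchyma (square, triangle, diamond), and milk replacer fat pad (12 grey points) as a reference tissue. The controls sit with the fat pad for miR-429, miR-200a and miR-205, below both tissues for miR-369-3p, and apart from each other for miR-708, miR-142-5p and miR-122.

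The DLK1-DIO3 cluster is an imprinted region whose miRNAs are processed from long transcripts of the maternal chromosome and are known from the embryo, the placenta, muscle and mesenchymal cells. Of its 50 tested miRNAs 44 were higher with milk replacer and 0 lower, against 30.1% and 15.3% of all tested miRNAs. In 31 of them all 12 samples were above all 3 controls. The median log2 fold change was 2.51. Against 5 reads per control library, miR-431, miR-380-5p and miR-541, listed at 0 in all controls, were at least 18.4-fold, 9.24-fold and 10.4-fold higher. These bounds (log2 4.20, 3.21 and 3.38) lie above 2.51, so the median could not move with them and says nothing about the zeros. miR-127, the most abundant member, ranged from 39354 to 114268 (median 77133) in milk replacer samples, against 19628, 18959 and 5750 in controls 1, 2 and 18 (log2 fold change 2.50, SE 0.36, adjusted p = 2.39e-05, limma). miR-411a ranged from 33463 to 104897 (median 62918), against 19570, 53184 and 10911, so control 2 lay within the milk replacer range.

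miR-379 ranged from 8693 to 28510 (median 15182) in milk replacer samples, against 8639, 5538 and 2561 in the controls (log2 fold change 1.68, SE 0.36). miR-409b ranged from 8209 to 19932 (median 15290), against 2969, 1780 and 1034 (log2 fold change 3.03, SE 0.32). miR-433, shown above, ranged from 550.2 to 2035 (median 1148), against 409.2, 231 and 66.6 (log2 fold change 2.61, SE 0.46, adjusted p = 0.000176, limma). In miR-379 the gap between control 1 and the lowest milk replacer sample was small, whereas in miR-409b every control was far below the lowest milk replacer sample.

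The 6 members that did not pass were miR-136, miR-323b-3p, miR-376b, miR-376e, miR-377 and miR-381, all with a fold change above 0. miR-381 ranged from 4131 to 16607 (median 9157) in milk replacer samples, against 6519, 13912 and 2263 in the controls. Control 18 was the lowest for the cluster as a whole: it was below all 12 milk replacer samples in 50 of the 50 miRNAs, control 1 in 40 and control 2 in 38. The mean of log2(value + 1) over the 53 listed members was 7.74 to 9.14 in milk replacer samples, 6.68, 6.91 and 5.00 in controls 1, 2 and 18, and 6.59 to 7.90 in the fat pad. Control 18 was thus below both tissues for this cluster. The number of members higher was 42, 49 and 38 without control 1, 2 or 18, 36 with sample quality weights, and 33, 33 and 49 with control 1, 2 or 18 as the only control, with 0 lower in each of these fits.

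miRNAs of vessels were lower with milk replacer. Both mature arms of miR-126 fell, with no overlap, against 15.3% lower and 5.9% lower without overlap over all tested miRNAs. miR-126-3p ranged from 51886 to 104428 (median 70916) in milk replacer samples, against 422222, 170138 and 354698 in controls 1, 2 and 18 (log2 fold change -2.05, SE 0.25, adjusted p = 3.74e-06, limma). miR-126-5p ranged from 683 to 2274 (median 1230), against 4564, 2610 and 6694. Control 2 was the lowest control in both arms.

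Of the 6 stromal and smooth muscle miRNAs 2 were lower and 1 higher, against 15.3% and 30.1% of all tested miRNAs. With samples set to the same sum 2 were lower and 3 higher, and with sample quality weights 2 were lower and 0 higher. miR-143, 1 of the 5 most abundant miRNAs, ranged from 118701 to 202002 (median 151465) in milk replacer samples, against 393964, 638642 and 559748 in the controls (log2 fold change -1.74, SE 0.18, adjusted p = 9.14e-07, limma). miR-145, which shares its transcript with miR-143, also fell (log2 fold change -1.54, SE 0.37; adjusted p = 0.00206, limma), but controls 1, 2 and 18 were at 54389, 33062 and 15778, and the last lay within the 5260 to 15782 of the milk replacer samples. miR-199a-1-3p, a fibroblast-associated miRNA, went the other way: it ranged from 101516 to 187304 (median 162210), against 100293, 73954 and 73939 (log2 fold change 0.89, SE 0.20, adjusted p = 0.00135, limma). Its opposite arm miR-199a-1-5p did not pass, with 62562 to 109883 (median 86187) in milk replacer samples and 44844, 180195 and 39984 in the controls, where control 2 was the highest and controls 1 and 18 the lowest of all 15 samples.

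Of the adipocyte-linked miRNAs 7 of 13 were lower with milk replacer and 0 higher, against 15.3% and 30.1% of all tested miRNAs. The number lower was 5 with sample quality weights and 5 of 12 without control 2. miR-378-2, made from an intron of PPARGC1B, had 0 to 15227 (median 3681) in milk replacer samples, against 80478, 81687 and 8370 in controls 1, 2 and 18, and did not pass (log2 fold change -4.14, SE 1.74, adjusted p = 0.0626, limma). Its single 0, in restricted replicate 10, stands beside 2715 under the bare name miR-378, which was listed at 0 in the other samples; without that sample miR-378-2 passed (log2 fold change -3.18, adjusted p = 0.000273, limma). Its copy miR-378-1, outside the list by the rule of 1 name per group of copies, ranged from 1582 to 14005 (median 3393), against 68781, 75051 and 7609 (log2 fold change -3.14, SE 0.56, adjusted p = 0.000192, limma). Controls 1 and 2 were far above the milk replacer range in both and control 18 was inside it. miR-148a, the most abundant of the list, did not pass, with 201781 to 405705 (median 262645) in milk replacer samples, against 229489, 594471 and 368549 in the controls. miR-103-2 ranged from 5035 to 9524 (median 6354), against 9155, 8448 and 10843, and fell slightly (log2 fold change -0.55, SE 0.21, adjusted p = 0.0382, limma); the call was lost with samples set to the same sum and without any 1 of 10 samples. miR-107 did not pass (2347 to 3456, median 2628, against 2587, 3660 and 3068). Control 1 was above all 12 milk replacer samples in 10 of the 13 miRNAs, control 2 in 12 and control 18 in 2, and with control 18 as the only control 1 miRNA of the list was lower and 2 were higher.

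The HOX clusters, which keep the positional identity of tissues, hold miR-10b and miR-10a, and both fell. miR-10b ranged from 17472 to 34611 (median 25323) in milk replacer samples, against 146029, 66166 and 95269 in controls 1, 2 and 18 (log2 fold change -1.91, SE 0.25, adjusted p = 7.45e-06, limma). miR-10a ranged from 2330 to 6214 (median 3804), against 28579, 15498 and 5519, with control 18 inside the range. The other 2 members, miR-196b and miR-196a-2, did not pass, so 2 of 4 were lower, against 15.3% of all tested miRNAs.

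Other miRNAs with the largest falls and no overlap were miR-29c, miR-139, miR-486, miR-1468, miR-95 and miR-181c. miR-139, made from an intron of PDE2A, ranged from 1021 to 3028 (median 1634) in milk replacer samples, against 14310, 7243 and 6538 in the controls (log2 fold change -2.43, SE 0.33, adjusted p = 1.22e-05, limma). miR-486, known from red cells and muscle, ranged from 206 to 496.2 (median 322.8), against 2495, 1664 and 692 (log2 fold change -2.13, SE 0.33). miR-29c, of a family that targets collagen messages, ranged from 4.22 to 27.1 (median 13.3), against 68.7, 155 and 65.7 (log2 fold change -2.69, SE 0.47). Its family had 4 of 6 lower (miR-29b and miR-29e have identical values), against 15.3% of all tested miRNAs. The number was 5 without control 1, 3 with samples set to the same sum and 1 with sample quality weights. The abundant miR-29a did not pass (5508 to 15813, median 7695, against 5108, 12157 and 14079).

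miR-1468 ranged from 522 to 1218 (median 792) in milk replacer samples, against 5612, 1961 and 2020 in the controls. miR-95 ranged from 55.6 to 116 (median 78.3), against 192, 185 and 425, and miR-181c from 44 to 117 (median 64.1), against 150.6, 306 and 146. In none of these did any control enter the milk replacer range. The 4 tested miRNAs of the miR-708, miR-28 and miR-151 group were all lower, against 15.3% of all tested miRNAs. Only 1 of the 4 passed with samples set to the same sum. miR-708, shown above, ranged from 653 to 1468 (median 1164), against 6394, 5320 and 1327, so that controls 1 and 2 carried the difference and control 18 was within the range (log2 fold change -1.72, SE 0.38, adjusted p = 0.00114, limma).

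Among smaller groups, both members of the pair miR-221 and miR-222 and both tested members of the p53-linked miR-34 family were higher. miR-221 ranged from 7324 to 9648 (median 8619) in milk replacer samples, against 2758, 2086 and 5324 in the controls (log2 fold change 1.43, SE 0.24, adjusted p = 0.000108, limma). miR-222 ranged from 1454 to 3055 (median 2470), against 1294, 873 and 1787, and did not pass without control 2 (log2 fold change 0.66, adjusted p = 0.0647, limma). miR-34a ranged from 394 to 786 (median 628), against 117, 108 and 132 (log2 fold change 2.30, SE 0.25), and here the 3 controls were close to each other. miR-34c ranged from 26.2 to 165 (median 71.5), against 7.63, 22 and 20.1. Of the 13 tested miRNAs of the cell cycle clusters (miR-17-92 and its relatives) 0 passed in limma (1 at an unadjusted p under 0.05), of the miR-30 family 0 of 6 (2 unadjusted), of striated muscle 0 of 3 (1 unadjusted) and of the neural list 0 of 3 (0 unadjusted). In the cell cycle clusters control 1 was below all milk replacer samples in 7 miRNAs and control 18 above them in 7, and with control 18 as the only control 5 of the 13 were lower. The let-7 family had 2 of 10 higher and the miR-99, miR-100 and miR-125 group 2 of 6, near the 30.1% of all tested miRNAs. let-7c and miR-100 were among them, with 10663 and 24397 in control 2, 2552 and 10304 in control 18 and, within the milk replacer ranges, 24311 and 35628 in control 1. Without control 18 neither let-7c (log2 fold change 0.19, adjusted p = 0.612) nor miR-100 (0.35, adjusted p = 0.240) passed, and let-7c was also lost without control 2 or any 1 of 11 milk replacer samples (limma). Against 30.1% higher and 15.3% lower over all tested miRNAs, of the X-linked miR-424 cluster 2 of 7 were higher, of the miR-2284 and miR-2285 families of ruminants 1 of 11 was higher, of the miR-181 family 1 of 4 was lower, of the erythroid list 1 of 3 was lower, and of the miR-23, miR-24 and miR-27 group 4 of 7 were lower, of which 1 was with samples set to the same sum. With control 18 as the only control 8 of the 11 miR-2284 and miR-2285 miRNAs were lower, and with control 2 as the only control 6 were higher.

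Of the 4 liver miRNAs in the table that were tested, miR-192 and miR-194-2, which share a transcript, were lower with no overlap. They make 2 of 4, against 15.3% lower and 5.9% lower without overlap over all tested miRNAs. miR-192 ranged from 2023 to 3246 (median 2881) in milk replacer samples, against 4254, 7819 and 8801 in controls 1, 2 and 18 (log2 fold change -1.27, SE 0.24, adjusted p = 0.000363, limma). miR-194-2 ranged from 644 to 1180 (median 916), against 1665, 1960 and 3006. miR-122, the hepatocyte miRNA, had 12.2 to 506 (median 80.8) in milk replacer samples, against 3058, 91.4 and 3.92 in the controls and did not pass (adjusted p = 0.791, limma). It was thus high in control 1 only, while miR-192 was high in all 3 controls.

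Immune cell miRNAs set control 18 apart. Of 8 tested, 1 was higher and 2 lower, against 30.1% and 15.3% of all tested miRNAs. Control 18 was above all 12 milk replacer samples in 7 of 8, control 1 in 2 and control 2 in 0. miR-142-5p, the pan-leukocyte miRNA, ranged from 1048 to 3111 (median 2175) in milk replacer samples, against 843, 2003 and 45393 in controls 1, 2 and 18. miR-150, of lymphocytes, ranged from 416 to 1403 (median 699), against 1691, 873 and 23130. miR-342 ranged from 1846 to 4432 (median 3415), against 3846, 4153 and 5729. Control 18 was thus far above all other parenchyma samples in miR-142-5p and miR-150, and of these 3 miRNAs only miR-150 passed the test (log2 fold change -2.16, SE 0.64, adjusted p = 0.0108, limma). Without control 18 the value for miR-150 was -0.74 (adjusted p = 0.137, limma), that for miR-142-5p 0.62 (adjusted p = 0.203) and that for miR-223 2.60 (adjusted p = 1.85e-05).

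miR-146b, induced by NF-kB and also made by epithelium, was the 1 member that rose, at 4118 to 10836 (median 8965) with milk replacer against 860.1, 370.1 and 4040 in the controls (log2 fold change 2.87, SE 0.49, adjusted p = 0.000142, limma). miR-155, of activated lymphocytes and macrophages, ranged from 128 to 316 (median 213), against 1533, 284 and 5237. miR-223, shown above, ranged from 104 to 269 (median 151.2), against 35.6, 16.2 and 599, so that controls 1 and 2 were below all milk replacer samples and control 18 above them. With control 18 as the only control 6 of the 8 miRNAs were lower and 0 higher; with control 1 as the only control 5 were higher and 1 lower; with control 2 as the only control 2 were higher and 0 lower.

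Of the 5 most abundant miRNAs, miR-143 (above) separated the groups without overlap, miR-148a (above) and miR-99a-5p did not pass, and miR-26a and miR-21-5p passed with overlap. miR-99a-5p, at 454222 to 805704 (median 584039) with milk replacer, had 768130, 508370 and 286504 in the controls and did not pass. miR-26a ranged from 128911 to 221313 (median 147391), against 389605, 218970 and 276738 (log2 fold change -0.88, SE 0.19, adjusted p = 0.000956, limma). miR-21-5p ranged from 100360 to 296183 (median 151169), against 36412, 43247 and 244335 (log2 fold change 1.11, SE 0.42, adjusted p = 0.0405, limma). In miR-21-5p controls 1 and 2 were below every milk replacer sample, and control 18 was inside their range. The call of miR-21-5p was lost without control 1 (log2 fold change 0.62, adjusted p = 0.298) or control 2 (0.74, adjusted p = 0.218), and without any 1 of 8 milk replacer samples (adjusted p at most 0.0581, limma).

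Each control lay outside the milk replacer range in a like number of miRNAs. Of the 339 tested, control 1 was below all 12 in 122 and above all 12 in 93 (63.4% outside), control 2 in 135 and 89 (66.1%) and control 18 in 124 and 104 (67.3%). When each milk replacer sample was set against the other 11, a median of 43.5 miRNAs lay outside (lowest 24), with the most in ad libitum replicate 7, followed by restricted replicate 10 (97) and ad libitum replicate 11 (90). Across the 339 miRNAs, which share libraries and are not replicates, r of log2 values was 0.893 to 0.993 between milk replacer samples (median 0.976), 0.930 between controls 1 and 2, 0.879 between controls 1 and 18 and 0.862 between controls 2 and 18. In 83 miRNAs at least 1 control was above all 12 milk replacer samples and another below them, and 1 of these passed the test.

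The miRNAs in which 1 control exceeded the other 2 and all 12 milk replacer samples by most differed in kind. In control 1 they were miR-122 (3058), miR-211 (97.2), miR-365-5p (188), miR-196a-2 (1468) and let-7e (6394), of which miR-365-5p, miR-196a-2 and let-7e had 41.7 to 167, 1456 to 2408 and 5266 to 9141 in the milk replacer fat pad. In control 2 they were miR-144 (512), of red cell precursors, miR-376b (89.6), miR-1277 (64.8), miR-193a-3p (309) and miR-101-2 (44886). In control 18 they were miR-2332 (277), miR-142-3p (13636), miR-142-5p (45393), miR-2411-3p (122) and miR-223 (599), of which the miR-142 pair and miR-223 are leukocyte miRNAs. These values chose the miRNAs and are given as a description.

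**Figure D3:**
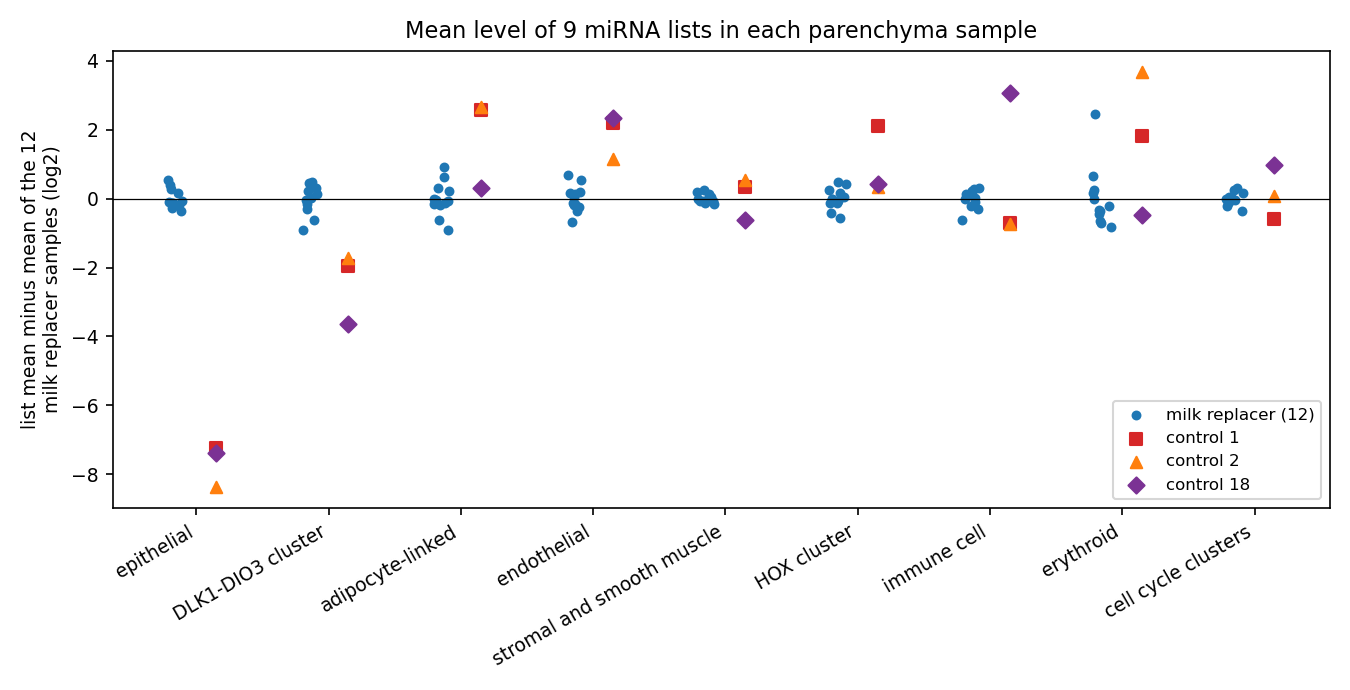
Mean of log2(value + 1) over the miRNAs of 9 lists in each parenchyma sample, given as the difference from the mean of the 12 milk replacer samples (points) beside controls 1, 2 and 18 (square, triangle, diamond). The controls lie 7.24 to 8.37 below that mean for epithelial miRNAs, controls 1 and 2 lie 2.56 and 2.67 above it for adipocyte-linked miRNAs, and control 18 lies 3.07 above it for immune cell miRNAs.

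The fat pad of the same series shows where these profiles stood between the tissues. In 62 miRNAs all 12 milk replacer parenchyma samples were above all 12 milk replacer fat pad samples. Of these, controls 1, 2 and 18 lay within the fat pad range in 46, 32 and 17, and within the parenchyma range in 4, 11 and 15. In 50 miRNAs parenchyma was below fat pad, and the controls lay within the fat pad range in 25, 12 and 8 and within the parenchyma range in 1, 13 and 21. Control 1 was thus within the fat pad range most often and control 18 least often. Across the 339 miRNAs, r with the mean of the milk replacer fat pad was 0.970, 0.928 and 0.870 for controls 1, 2 and 18, and r with the mean of the milk replacer parenchyma was 0.864, 0.842 and 0.808. The part of the tissue composition in the difference between the diets was not tested and, with all 3 controls low in epithelial miRNAs, diet and composition cannot be told apart.

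**Figure D4:**
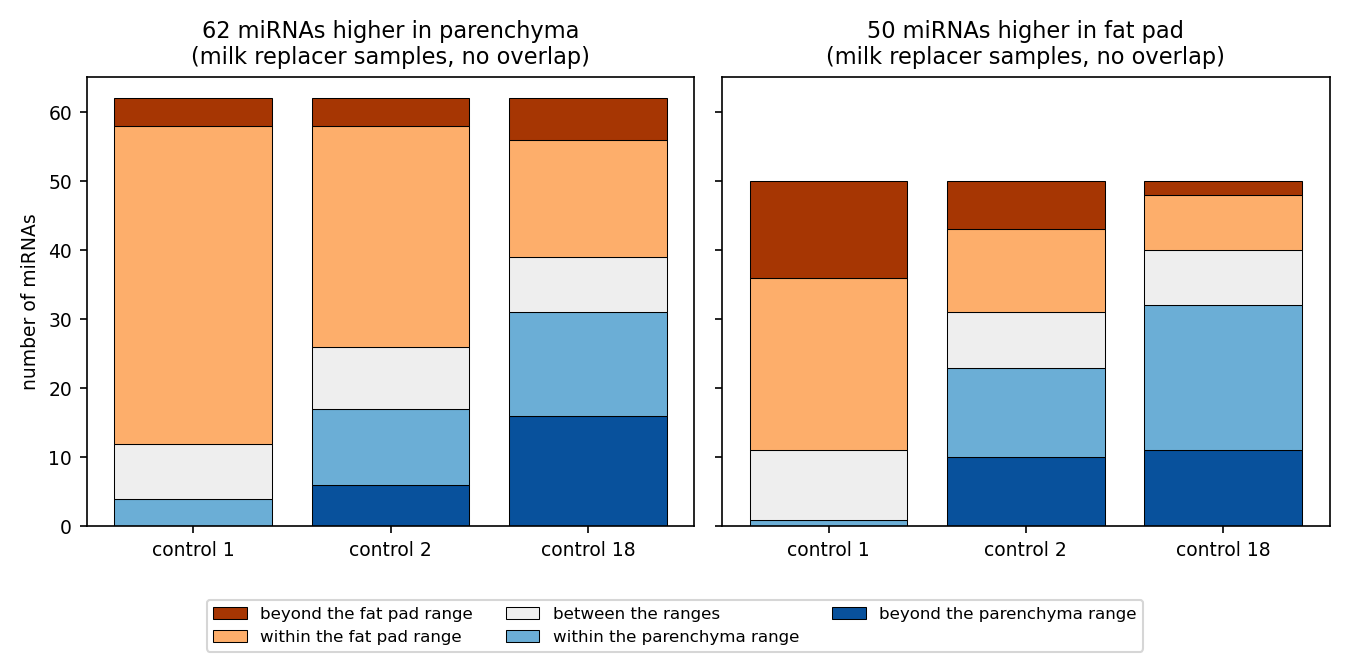
Position of each parenchyma control for miRNAs that separate milk replacer parenchyma from milk replacer fat pad without overlap, as numbers of miRNAs: 62 higher in parenchyma (left) and 50 higher in fat pad (right). Controls 1, 2 and 18 are within the fat pad range for 46, 32 and 17 miRNAs on the left, and for 25, 12 and 8 on the right.

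Not every difference ran along this axis. In 40 miRNAs the milk replacer samples did not overlap with the parenchyma controls while milk replacer parenchyma and milk replacer fat pad overlapped each other. Without regard to the fat pad, 76 of the 339 tested miRNAs (22.4%) had no overlap between milk replacer and control parenchyma. Of 336 miRNAs, 62 were above and 50 below the fat pad in milk replacer parenchyma without overlap. Overlap between the tissues was thus the more common case, and the 40 are given as a description. What set the 40 miRNAs apart was not tested. Of the 102 higher miRNAs, 10 had all 3 controls below all 16 fat pad samples as well, among them miR-127, miR-369-3p, miR-379, miR-655 and miR-199a-1-3p. The 10 also count miR-199a-2-3p, a copy that shares reads with miR-199a-1-3p, and let-7c and miR-100, which did not pass without control 18. miR-369-3p had 3086 to 7101 (median 5583) in milk replacer parenchyma, 840.3, 556 and 402 in controls 1, 2 and 18, and 1909 to 4865 in the milk replacer fat pad. Of the 52 lower miRNAs, 4 had all 3 controls above all 16 fat pad samples, namely miR-151-3p, miR-191, miR-192 and miR-363. The 10 and the 4 were counted among miRNAs that had passed the test. No share over all tested miRNAs stands beside them, so they are a description only. miR-192, with 4254, 7819 and 8801 in the controls, had 1763 to 3126 in the milk replacer fat pad and 2023 to 3246 in the milk replacer parenchyma. miR-191 did not pass without control 18 (log2 fold change -0.39, adjusted p = 0.193, limma), and miR-151-3p did not without control 1 (-0.50, adjusted p = 0.0761) or control 18 (-0.47, adjusted p = 0.0845). miR-363 had 251, 293 and 1582 in controls 1, 2 and 18, against 107 to 378 in milk replacer parenchyma. Only control 18 was thus outside that range (log2 fold change -1.24, SE 0.45, adjusted p = 0.0335, limma). Its difference between the diets did not differ between the tissues (limma interaction, adjusted p = 0.622).

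The difference between milk replacer and control samples was then compared between the tissues. Of 336 miRNAs with a mean of at least 10 over the 31 mammary samples, 113 (33.6%) had a difference between milk replacer and control that itself differed between parenchyma and fat pad, with a difference more positive in parenchyma in 69 (20.5%) and more negative in 44 (13.1%). In the fat pad alone 28 of 336 passed (8.33%), 23 higher (6.85%) and 5 lower (1.49%); with a pseudocount of 10 in place of 1 the number was 16 (13 higher, 3 lower), and with samples set to the same sum 23 were higher and 1 lower. For the epithelial list 11 of 11 differed between the tissues, for the DLK1-DIO3 cluster 37 of 49, for adipocyte-linked miRNAs 7 of 13 and for endothelial miRNAs 2 of 2. In the fat pad 4 of the 11 epithelial miRNAs (miR-200a, miR-200b, miR-200c and miR-205) were higher with milk replacer as well. Of the DLK1-DIO3 cluster 4 of 49 were higher there, which is near the 6.85% of all miRNAs. In limma 0 of the 13 adipocyte-linked and 0 of the 2 endothelial miRNAs passed in the fat pad (0 and 1 at an unadjusted p under 0.05). The levels of the epithelial miRNAs in the fat pad were low, with miR-200a at 0 to 84.8 (median 20.2) in milk replacer fat pads and at 0 in each of the 4 control fat pads. These calls lie near the floor, where a 0 can hide up to 5 reads. Estimated reads were 2426128 to 5220093 in the control fat pads and 2123962 to 9522666 in the milk replacer ones.

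Neighbouring miRNA genes that passed the test had the same direction within each group. By RefSeq gene positions (assembly ARS-UCD2.0), used for neighbours only, 328 of the 339 tested miRNAs had a matching gene, and 160 of them lay in 40 groups with neighbours within 10000 bases. In 15 groups the members that passed were all higher, in 10 all lower, in 15 none passed and in 0 did some rise and others fall. Part of this was fixed in advance, because groups with only 1 member that passed, such as miR-100 beside let-7a-2-5p, cannot hold both directions. Nor are all groups independent, as miR-29b and miR-29e lie in different groups and have identical values. Counting also the members that did not pass, 9 of the 40 groups held fold changes of both signs, among them the miR-424 group (-0.39 to 2.75) and the miR-17-92 group (-0.79 to 0.76). The largest group, of 44 DLK1-DIO3 miRNAs beginning with miR-379, had 39 higher, and a neighbouring group of 7 that holds miR-127 and miR-433 had 6 higher. miR-429, miR-200a and miR-200b (3 of 3 higher), miR-182, miR-96 and miR-183 (3 of 3), miR-132 and miR-212 (2 of 2), miR-143 and miR-145 (2 of 2 lower) and miR-192 and miR-194-2 (2 of 2 lower) were others. miR-132, whose transcript responds to CREB, ranged from 237 to 1503 (median 829.1) in milk replacer samples, against 198, 138 and 85.7 in the controls, and miR-212 from 43.6 to 256 (median 149), against 16.3, 27.2 and 13.7. The miR-17-92 group had 0 of 7. Of 28 hairpins with both arms tested, 24 had arms of the same sign, and in 9 both arms passed, all in the same direction.

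The 3 controls did not weigh alike. Of the 102 higher and 52 lower miRNAs, 130, 132 and 128 passed in the same direction without control 1, 2 or 18, and 73 higher and 33 lower ones did so in all 3 of these fits. With control 1, 2 or 18 as the only control, 100, 109 and 113 of them passed in the same direction, and 43 higher and 11 lower ones passed in all 3, in fits where the lone control is assumed to vary like the milk replacer samples. The 11 epithelial miRNAs passed in each of these 6 fits. With sample weights estimated from the spread, where control 18 received the lowest weight (0.0992), 75 miRNAs were higher and 31 lower.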

How the data were processed

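Total RNA was extracted with a Direct-zol kit, and libraries were prepared by adaptor ligation with a NEBNext small RNA set. The tools named by the submitters are bcl2fastq, FastQC, Trim Galore and DESeq2, with no version. Program and genome build of the read assignment: not given in the sources used here. In the deposited table are 524 bovine miRNAs in 48 sample columns, as normalized read counts, which the authors scaled by a size factor for each library. Each of its lines is quoted again as a whole, so the unit was judged from the values: all were whole multiples of 1 step per library (tolerance 0.01), none above 0 was under 6 steps, and the sum of steps estimated the reads. No test for counts was used on these estimates. The table's 5 columns of the authors' own comparison and 1 mean column were not used. None of 33 pairs of samples of the same group was within counting error of each other.

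Groups were compared with limma 3.58.1 (R 4.3.3) on log2(value + 1), with a variance trend, over miRNAs with a mean of at least 10, at a Benjamini-Hochberg adjusted p under 0.05. The contrast was the mean of the ad libitum and restricted groups minus control in a fit of 15 samples; the difference between tissues came from 31 mammary samples. On this scale changes of low miRNAs are understated. The fitting code was tested on milk replacer samples, some of which stood in for controls, with known fold changes put in. The real controls were less alike than most of those samples, which that test does not cover. Detected miRNAs were compared by exact permutation over 455 splits (Python 3.11.15, scipy 1.17.1).

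The members and lists were chosen with earlier results of these data known. Lists keep 1 name per group of copies, that of highest mean. Named miRNAs are the 10 largest changes in each direction without overlap and with a mean of at least 50 in the higher group, the 5 that stand out most in each control, the 5 most abundant, the 5 largest differences between tissues in each direction, and up to 4 of highest mean per list; others were chosen after their values were seen. Alternatives were other scalings, pseudocounts, filters, weights and models, and left-out samples. Counts per list under other settings were added after the data were seen.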

Additional observations from a re-analysis of the deposited data

Results flagged for a closer look

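In groups of 6 milk replacer samples, 146 groups of values were tested for a sample far from the others (Dixon's criterion), and 14 were past it, where chance gives about 7.3, or 1 in 20. Ad libitum replicate 7 was the highest of its group in 6 of these. It had 9524 normalized read counts of miR-103-2, 1212 of miR-142-3p, 299.7 of miR-155, 296183 of miR-21-5p, 1471 of miR-28 and 618 of miR-151-5p. Restricted replicate 16 was the highest of its group for miR-10b (33709), miR-126-5p (2274) and miR-28 (1206). Restricted replicate 10 was the lowest for miR-199a-1-3p (101516) and miR-100 (25013). Restricted replicate 13 stood out for miR-31 (1913), restricted replicate 5 for miR-150 (1129) and ad libitum replicate 15 for the mean log2 level of the stromal and smooth muscle list (15.39).

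The difference between milk replacer and control differed between parenchyma and fat pad in 113 miRNAs (limma interaction, adjusted p under 0.05). The values that follow are the log2 change in parenchyma minus that in fat pad, so either tissue can contribute to them. The most positive were 10.35 for miR-429, 7.83 for miR-141, 7.45 for miR-183, 7.07 for miR-205 and 6.74 for miR-96. The most negative were -4.25 for miR-378d, -3.87 for miR-2285k-1, -3.81 for miR-6715, -3.64 for miR-378b and -3.31 for miR-129-1-5p. In parenchyma alone the miR-183 cluster had log2 fold changes of 5.30 to 6.74, so the 7.45 of miR-183 exceeded its change in parenchyma. miR-429, miR-141 and miR-96 were listed at 0 in the milk replacer fat pads, so their values rest on the parenchyma.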

How the results depend on the processing

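The counts of miRNAs that passed stayed within 1.5 times their values, with these exceptions: restricted against control gave 86 miRNAs with sample quality weights, and the fat pad comparison gave 16 with a pseudocount of 10, against 28. Leaving out 1 sample gave 140 to 169 miRNAs for milk replacer against control. Of the 63 miRNAs followed, 54 passed, and 28 of these passed under all 28 alternatives; of all miRNAs, 39 higher and 10 lower passed under each alternative other than the filter at a mean of 50. Fitting all 48 samples gave 86 higher and 66 lower.

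Signs that turned belonged to miRNAs in which the controls disagree; the cause was not tested. With control 1 as the only control the log2 fold change was 0.28 for miR-148a, 0.044 for miR-107, 1.24 for miR-142-5p, 2.15 for miR-142-3p, -0.39 for miR-99a-5p and -0.40 for let-7c. With control 2 alone it was -1.07 for miR-199a-1-5p, and with control 18 alone -1.98 for miR-223 and -0.63 for miR-21-5p. Without control 18 it was 0.62 for miR-142-5p, 0.96 for miR-142-3p, -0.092 for miR-99a-5p and -0.063 for miR-199a-1-5p. Over all fits without 1 sample these 4 ran from -2.26 to 0.62, from -2.77 to 0.96, from -0.092 to 0.62 and from -0.063 to 1.02. With quality weights it was 0.11 for miR-142-5p and 0.32 for miR-142-3p, and with samples set to the same sum 0.13 for miR-107.

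The same numbers recur in both mammary tissues, but the labels do not say that they mark animals, so they were not treated as pairs. Of 14 same-numbered pairs 7 correlated above 0.1 (-0.08 to 0.47), and in 5 the own number gave the highest correlation within the feeding group. The correlations do not settle whether a number marks an animal. With the number as a replicate block 121 miRNAs differed between tissues. A value of 0 hides up to 5 reads, and 3 controls limit every p.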
